A study of Mus musculus with 18 samples.

Results

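The transcripts described here are 9 epithelial genes measured in endothelial cells (ECs) sorted from mouse mammary tissue, namely Krt8, Krt18, Krt19, Epcam, Cdh1, Gjb2, Car6, Car12 and Scgb2b27. They were chosen by gene name, for their level in each tissue and for the way they varied together between replicates, and are 9 of the 16248 genes listed. All 9 passed the filter on low values. Tissue levels and covariation are therefore given as a description, with no test. Tests were kept for the effect of treatment and for genes outside the 9.

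ECs, the cells that line blood vessels, came from 3 tissues of female FVB mice. Normal ECs were taken from wild type mice, out of the mammary fat pad. MMTV-PyMT ECs were from spontaneous breast tumours of MMTV-PyMT transgenic mice, in which a viral oncogene is driven in the mammary epithelium by a viral promoter. Implanted ECs were from tumours that grew in wild type mice after tumour cells were placed in the fat pad, which had been taken from MMTV-PyMT tumours and expanded briefly in culture. Each tissue was injected directly with PBS or with cGAMP, a cyclic dinucleotide agonist of the innate immune sensor STING, and was collected 3 hours later. Each of the 6 groups held 3 libraries. According to the study's methods, cells were enriched with anti-CD31 microbeads and then sorted as Sytox Green-, CD45- and CD31+ cells, and no stain for an epithelial protein was named. Reads recovered from the FPKM values ranged from 9016312 to 11970796 per library.

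Simple epithelia, among them the luminal cells of the mammary gland, build their cytoskeleton from keratin filaments and hold together through E-cadherin and EpCAM. Endothelial cells use VE-cadherin (Cdh5) in place of E-cadherin and vimentin in place of these keratins. Transcripts of this kind are widely used to recognise epithelial or carcinoma cells among stromal cells.

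Markers of the sort were present in all libraries. Mean FPKM of Pecam1, which encodes CD31, was between 156 and 304 in the 6 groups, and that of Cdh5 was between 291 and 590. Ptprc, which encodes CD45, lay between 0.156 and 9.74 FPKM in single libraries. Beside these, Epcam stood at 60.1 ± 7.46 FPKM (SD, n = 3) in normal ECs under PBS, above 97.3% of the listed genes. Krt8, Krt18, Krt19 and Cdh1 stood above 98.1%, 98.9%, 99.1% and 93.1% of them. The name tumour epithelial transcripts thus held for 3 of the 9 genes, Car6, Car12 and Scgb2b27, whose means in normal ECs were under 0.4 FPKM. The other 6 were listed well above 0 in the fat pad as well, and Krt19 was highest there, so the 9 are called epithelial transcripts below. In bulk samples, more epithelial cells or free RNA in a sort and more RNA of a gene per cell cannot be told apart.

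Libraries of the implanted tumours stood apart in 3 cases. Implanted cGAMP 1 was the lowest of its group for all 9 genes, with a summed level of 261 FPKM against 572 and 492 FPKM in the other 2 libraries of that group. The 8 endothelial markers summed to 1731 FPKM in it, against 1031 and 1245 FPKM. Implanted PBS 2 was likewise the lowest of its group for all 9 genes, with 395 FPKM against 591 and 508 FPKM. The share of all genes at their lowest in each of these libraries was not computed. Implanted cGAMP 2 had the highest sum of leukocyte markers. Results that rest on such a library are given with and without it where they were recomputed.

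The genes lie on separate chromosomes except for one pair. In the GENCODE M21 annotation of GRCm38 (mm10), Krt8 (ENSMUSG00000049382) is at chromosome 15, 101996698 to 102004482, on the minus strand, and Krt18 (ENSMUSG00000023043) is at chromosome 15, 102028180 to 102032027, on the plus strand. The ends of these neighbours are 23697 bases apart, with 0 genes between them, and their products pair to form filaments. Krt8 overlaps a lincRNA on the other strand, and 22.0% of its 75-base windows also occur in the pseudogene Krt8-ps. Krt8 values are uncertain to that degree. None of the windows of the other 8 genes occurred in another gene. Epcam (ENSMUSG00000045394) is at chromosome 17, 87635979 to 87651129, on the plus strand, and Scgb2b27 (ENSMUSG00000066584) is at chromosome 7, 34011921 to 34013942, on the minus strand.

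The promoters of 4 of the genes are shown, which include both genes abundant in every tissue and 1 near the floor in normal ECs, Scgb2b27. All 4 hold the motif marked below, so they do not show whether it goes with variation between replicates. Over 18 libraries, Scgb2b27 correlated less closely with Krt8, Krt18 and Epcam between replicates (Pearson 0.653, 0.625 and 0.687) than Car12 did (0.868, 0.897 and 0.853). Without implanted cGAMP 1 and implanted PBS 2, the values were 0.341, 0.275 and 0.395 for Scgb2b27 and 0.494, 0.568 and 0.356 for Car12. The order was then reversed for Epcam. Car12 is not shown. Capitals mark CACCTG and its reverse complement CAGGTG, an E-box bound by repressors of epithelial genes such as Snai1 and Zeb1. Each sequence is 300 bases long, from RefSeq on GRCm38.p6, and is written 5′ to 3′ on the strand of the gene. The regions are chr15:102004293-102004592 (minus) for Krt8, chr15:102027966-102028265 (plus) for Krt18, chr17:87635729-87636028 (plus) for Epcam and chr7:34013893-34014192 (minus) for Scgb2b27.
Krt8: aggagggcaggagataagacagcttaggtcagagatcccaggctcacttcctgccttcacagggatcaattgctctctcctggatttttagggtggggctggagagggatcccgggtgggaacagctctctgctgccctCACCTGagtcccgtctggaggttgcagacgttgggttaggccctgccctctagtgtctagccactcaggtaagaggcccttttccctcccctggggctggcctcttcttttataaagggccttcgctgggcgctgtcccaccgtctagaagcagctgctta
Krt18: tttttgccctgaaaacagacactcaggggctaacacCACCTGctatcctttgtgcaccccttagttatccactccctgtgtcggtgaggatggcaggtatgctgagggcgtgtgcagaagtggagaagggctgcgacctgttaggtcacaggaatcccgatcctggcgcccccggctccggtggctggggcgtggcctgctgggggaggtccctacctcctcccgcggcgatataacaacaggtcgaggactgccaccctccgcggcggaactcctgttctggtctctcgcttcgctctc
Epcam: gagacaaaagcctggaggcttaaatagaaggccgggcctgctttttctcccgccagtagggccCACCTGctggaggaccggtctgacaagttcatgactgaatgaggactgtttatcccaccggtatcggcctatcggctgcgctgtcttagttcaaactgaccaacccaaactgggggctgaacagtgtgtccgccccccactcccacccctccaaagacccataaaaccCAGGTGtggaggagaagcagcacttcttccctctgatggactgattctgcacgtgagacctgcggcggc
Scgb2b27: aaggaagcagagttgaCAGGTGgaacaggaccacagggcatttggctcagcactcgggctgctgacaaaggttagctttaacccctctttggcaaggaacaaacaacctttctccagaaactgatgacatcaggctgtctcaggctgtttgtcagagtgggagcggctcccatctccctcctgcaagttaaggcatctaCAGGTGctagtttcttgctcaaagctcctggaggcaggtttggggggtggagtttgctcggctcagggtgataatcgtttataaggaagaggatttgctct
The motif began at -111 in Krt8, -214 in Krt18, -187 and -19 in Epcam and -234 and -51 in Scgb2b27, counted from the transcription start. RefSeq promoters were matched for 7 of the 9 genes, and 5 of the 7 held the motif on one strand or the other, Gjb2 being the fifth, at -9. Among 32851 promoters of the same length, 20.2% held it. The looser form CANNTG, which contains both, occurred in 6 of the 7 and in 72.3% of all promoters. A match describes letters in a window and is not a site. Car6 and Car12 had no CACCTG or CAGGTG in this window, and Cdh1 and Krt19 had no entry.

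Krt8, Krt18 and Krt19 were the most abundant of the 9 in normal ECs under PBS. Krt8, the type II keratin of simple epithelia, was at 89.0, 85.7 and 67.9 FPKM in the 3 normal libraries under PBS. It was at 225, 232 and 236 FPKM in MMTV-PyMT ECs and at 131, 88.9 and 105 FPKM in implanted ECs. The MMTV-PyMT libraries stood above all others, whereas implanted and normal libraries overlapped. The means were 80.8 ± 11.3, 231 ± 5.77 and 108 ± 21.1 FPKM. Krt18, the type I partner of Krt8, was also highest in MMTV-PyMT ECs, at a mean of 265 ± 11.3 FPKM, and stood at 131 ± 16.7 FPKM in normal and 130 ± 24.9 FPKM in implanted ECs. Normal and implanted ECs overlapped for Krt18 as well. The ratio of Krt18 to Krt8 within a library lay between 0.937 and 1.69 over the 18 libraries.

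Krt19, the smallest type I keratin, ran the other way. Its FPKM were 170, 147 and 126 in normal ECs under PBS, 55.6, 60.9 and 59.7 in MMTV-PyMT ECs and 72.4, 48.6 and 61.7 in implanted ECs. All normal libraries were above all tumour libraries, and the 2 kinds of tumour overlapped. Relative to Krt8 in the same library, Krt19 was at 1.83 ± 0.0993 in normal ECs, against 0.563 ± 0.0217 in implanted and 0.254 ± 0.00765 in MMTV-PyMT ECs (SD, n = 3 each). The 3 ranges of this ratio did not overlap. Such a ratio does not change with the scaling of a library.

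**Figure D1:**
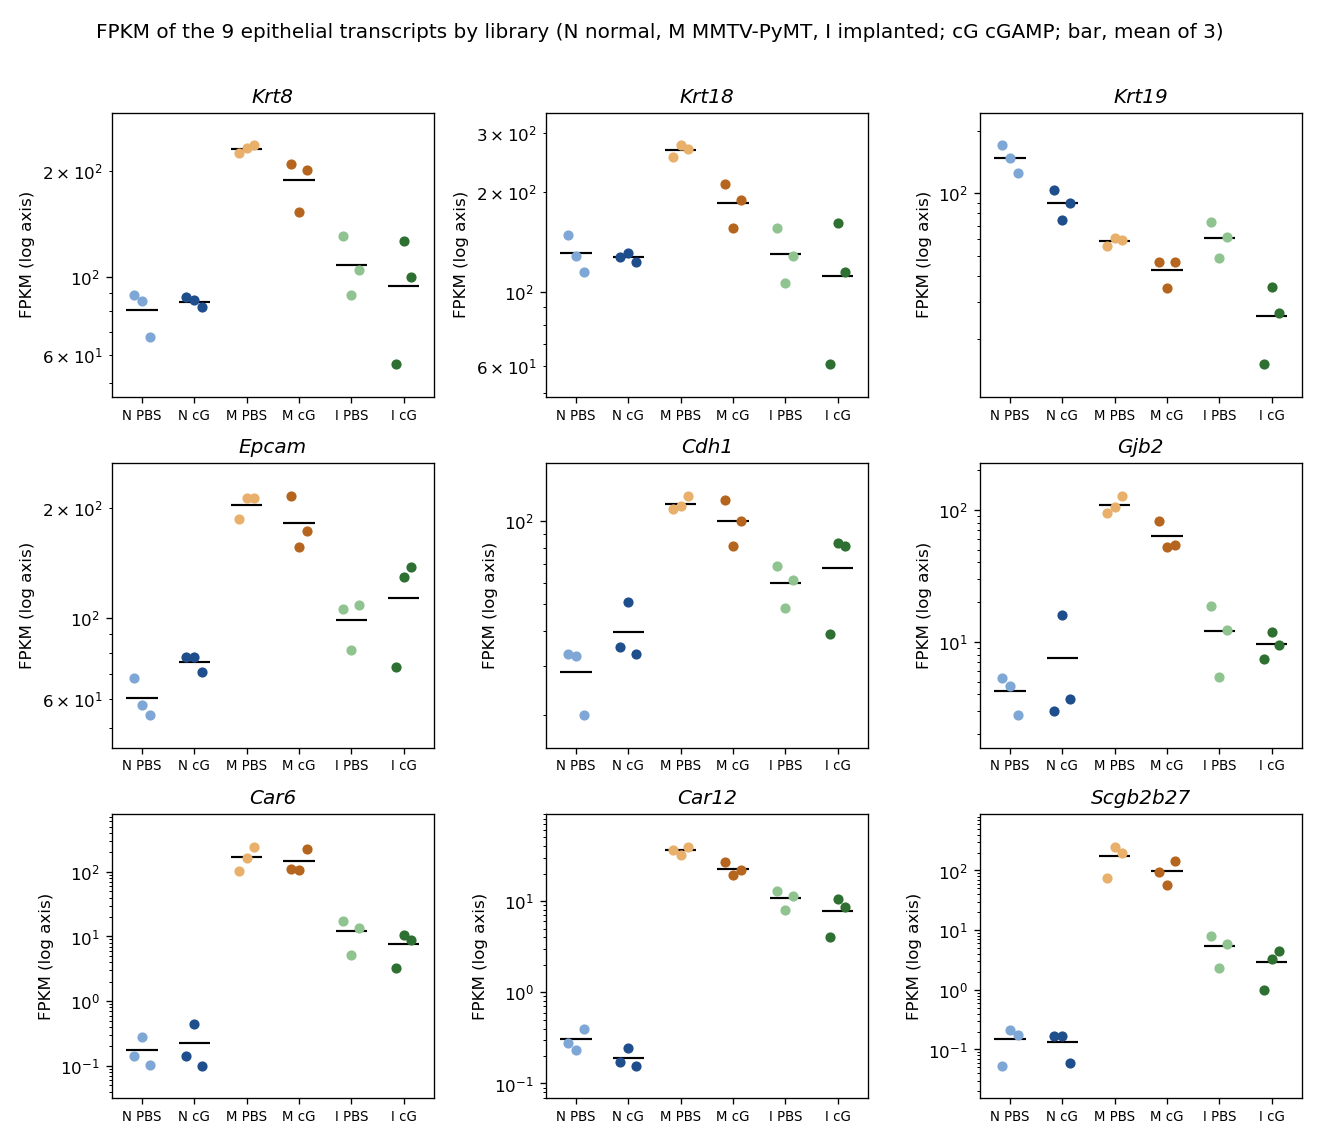
FPKM of the 9 epithelial transcripts (log axis) in each library, by tissue and treatment, with a bar at the mean of 3 libraries. Under PBS, 8 genes were highest in MMTV-PyMT ECs and Krt19 was highest in normal ECs, where the means of Car6, Car12 and Scgb2b27 lay under 0.4 FPKM.

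Adhesion genes followed the order of Krt8 in the tumours. Epcam, which encodes an epithelial surface adhesion protein, was at 68.5, 57.7 and 54.2 FPKM in normal ECs under PBS. It was at 186, 212 and 213 FPKM in MMTV-PyMT ECs and at 106, 81.6 and 109 FPKM in implanted ECs. These 3 sets of libraries did not overlap. Cdh1 (E-cadherin, the calcium-dependent adhesion molecule of epithelia) had means of 28.5 ± 7.39, 115 ± 6.56 and 59.6 ± 10.2 FPKM in normal, MMTV-PyMT and implanted ECs, again with no overlap. The ratio of Cdh1 to Epcam had group medians between 0.467 and 0.595. In single libraries it lay between 0.369 (normal PBS) and 0.652 (normal cGAMP). Gjb2, which encodes the gap junction protein connexin 26, was at 4.26 ± 1.31 FPKM in normal ECs and at 12.1 ± 6.60 FPKM in implanted ECs. In MMTV-PyMT ECs it reached 94.1, 106 and 127 FPKM, and its mean there was 9.03 times that of implanted ECs. Gjb2 thus set the tumours further apart than Epcam or Cdh1 did.

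The carbonic anhydrases, enzymes that hydrate carbon dioxide, were close to the floor of the table in normal ECs. Car6, the secreted form, had 3, 6 and 2 reads there under PBS, or 0.140, 0.279 and 0.102 FPKM. It stood at 102, 162 and 245 FPKM in MMTV-PyMT ECs and at 17.5, 5.22 and 13.8 FPKM in implanted ECs. With 11 reads in the 3 normal libraries together, the MMTV-PyMT mean was 979 times the normal mean, with a 95% counting interval of 547 to 1962, and the implanted mean was 70.2 times it (39.2 to 141). These exact Poisson intervals cover counting error of the normal reads only. Car12, a membrane-bound form, had 25, 21 and 33 reads in normal ECs, and means of 0.304 ± 0.0867, 36.2 ± 3.87 and 10.8 ± 2.55 FPKM in normal, MMTV-PyMT and implanted ECs. Both genes kept the 3 tissues apart in every library under PBS.

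Scgb2b27, a secretoglobin of the androgen-binding protein family, was also near the floor in normal ECs. It had 1, 4 and 3 reads in normal ECs under PBS. It was at 73.7, 251 and 197 FPKM in MMTV-PyMT ECs and at 7.90, 2.30 and 5.80 FPKM in implanted ECs. The means of the 2 tumours, 174 ± 90.8 and 5.33 ± 2.83 FPKM, differed 32.6-fold. From the 8 normal reads, the MMTV-PyMT mean was 1172 times the normal mean, with a 95% counting interval of 595 to 2714. Only 1 other secretoglobin was listed, Scgb3a1, at means of 1.11 to 2.45 FPKM in the 6 groups.

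Over the 9 genes, 8 were above every normal library in MMTV-PyMT ECs under PBS, and 6 were so in implanted ECs. Krt19 was below every normal library in both. Among all 13983 tested genes, 13.9% were called in the first comparison and 11.5% in the second (adjusted p under 0.05 and at least 2-fold, limma). Those shares are calls, a different measure from lack of overlap, and the share of all genes without overlap was not computed. Because tissue level was the reason for choosing these 9, nothing is read from their counts. The median difference in log2(FPKM + 1) was 2.01 between MMTV-PyMT and normal ECs, 1.06 between implanted and normal ECs, and -1.10 between implanted and MMTV-PyMT ECs, for which 7.33% of all genes were called. The medians over all tested genes were 0.0158, 0.0101 and -0.0097. Of the 9 genes, 8 were lower in every implanted library than in every MMTV-PyMT library, and Krt19 overlapped. Passing the filter through the tumour libraries alone obliged Car6, Car12 and Scgb2b27 to differ from normal.

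Under cGAMP the order of tissues was the same for most genes. MMTV-PyMT libraries were above all normal libraries for 8 genes and below them for Krt19, while implanted and normal libraries overlapped for 5 genes. Of all tested genes, 10.4% and 14.2% were called in these comparisons, which is a different measure from overlap. Treated MMTV-PyMT ECs held Epcam at 215, 157 and 173 FPKM, implanted ECs at 73.2, 129 and 138 FPKM, and normal ECs at 77.8, 78.1 and 70.8 FPKM. The lowest implanted value, that of implanted cGAMP 1, fell among the normal ones.

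To ask whether the STING agonist altered these transcripts, cGAMP was compared with PBS within each tissue. This contrast did not choose the genes. With all libraries and the main settings, Krt19 was the only one of the 9 to pass the test, in 2 tissues. In implanted ECs it fell from 72.4, 48.6 and 61.7 FPKM under PBS to 15.1, 35.3 and 26.5 FPKM under cGAMP, a change of -1.28 ± 0.23 in log2(FPKM + 1) (SE, limma adjusted p = 0.000371, lower in 3 of 3 libraries). This was the 1 call among the 9, against 1.09% of all tested genes called lower and 7.22% called either way. Without implanted cGAMP 1 the change was -0.95 ± 0.19 (limma adjusted p = 0.00103), which no longer reached 2-fold. In normal ECs Krt19 fell from 170, 147 and 126 FPKM to 104, 74.8 and 89.9 FPKM, a change of -0.72 ± 0.23 (limma adjusted p = 0.026) that was short of 2-fold. At the adjusted p alone, 31.9%, 12% and 39.1% of all tested genes passed in normal, MMTV-PyMT and implanted ECs, so 1 of 9 in normal and in implanted ECs was no more than the share of all genes. The normal libraries of the 2 treatments did not overlap. In MMTV-PyMT ECs the means were 58.7 ± 2.79 and 42.8 ± 6.77 FPKM, a difference of -0.46 ± 0.23 that did not pass (limma adjusted p = 0.22). Whether the change in Krt19 differed between tissues was tested, and no pair of tissues passed with all libraries. The largest such value, implanted minus MMTV-PyMT, was -0.82 ± 0.33 (limma adjusted p = 0.124). It reached -1.08 and was called without implanted cGAMP 2.

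Within a library, Krt19 also fell relative to Krt8. The ratio of Krt19 to Krt8 in implanted ECs lay between 0.547 and 0.588 under PBS and between 0.265 and 0.278 under cGAMP. Implanted cGAMP 1, low in all 9 genes, had a ratio of 0.266 and was not apart from its group on this measure. In normal ECs the ratio lay between 1.72 and 1.91 under PBS and between 0.871 and 1.18 under cGAMP. In MMTV-PyMT ECs it lay between 0.248 and 0.263 and between 0.222 and 0.233. The treated libraries were below the PBS libraries in all 3 tissues. In MMTV-PyMT ECs the same held for Krt18 relative to Krt8, at 1.13 to 1.18 under PBS and 0.937 to 1.02 under cGAMP. In normal and implanted ECs the ranges of Krt18 to Krt8 overlapped between treatments. The ratio of Krt19 to Krt8 was chosen after its values were seen, and neither ratio was tested.

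**Figure D2:**
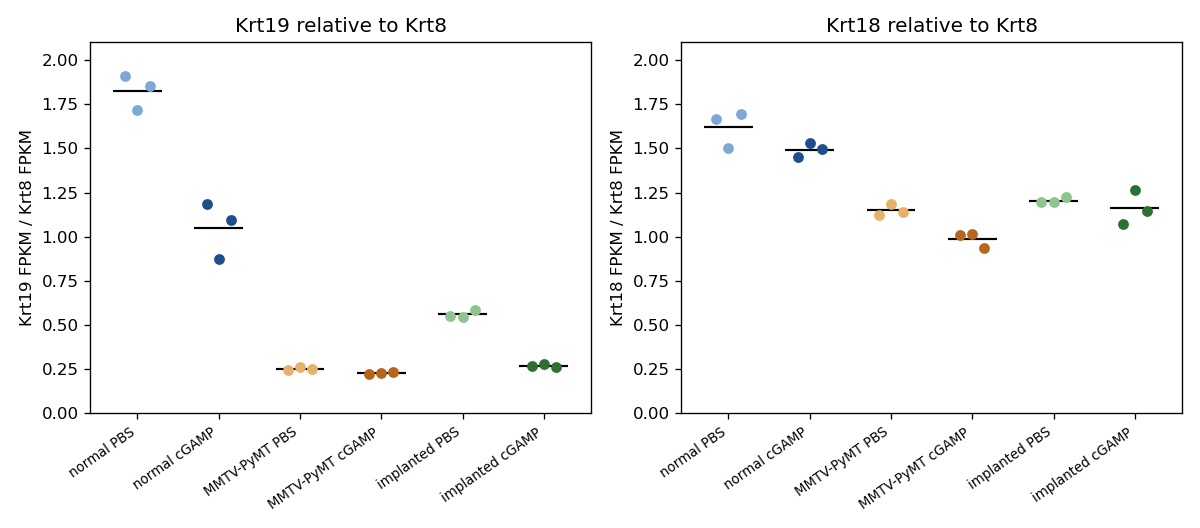
Ratio of Krt19 to Krt8 (left) and of Krt18 to Krt8 (right) within each library, on linear axes from 0, with a bar at the mean of 3 libraries. Under PBS and cGAMP the mean ratio of Krt19 to Krt8 was 1.83 and 1.05 for normal ECs, 0.563 and 0.270 for implanted ECs, and 0.254 and 0.228 for MMTV-PyMT ECs.

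The other 8 genes gave no call under cGAMP. In normal ECs their differences ranged from -0.13 (Car12) to 0.47 (Cdh1), and 0 of the 9 genes were called, against 3.7% of all tested genes, 0.687% of them lower. In MMTV-PyMT ECs all 9 differences were negative, from -0.80 ± 0.45 for Gjb2 to -0.17 ± 0.19 for Epcam, and 0 were called, against 2.56% of all tested genes, 0.0715% of them lower. At an unadjusted limma p under 0.05, 1 of the 9 counted in normal ECs (Krt19) and 2 in MMTV-PyMT ECs, Krt18 (-0.53 ± 0.24) and Car12 (-0.65 ± 0.23), against 42.3% and 26.5% of all tested genes. The limma adjusted p of Krt18 and Car12 in MMTV-PyMT ECs was 0.175 and 0.0786. When implanted cGAMP 1, a library of another tissue, was left out of the fit, both passed, at 0.0275 and 0.00783, short of 2-fold. With weights from recovered reads (voom) the number of called members was the same in each tissue. In MMTV-PyMT ECs the summed endothelial markers were at 774 to 1048 FPKM under cGAMP and at 715 to 872 FPKM under PBS. The part of that shift in the lower values was not tested. In implanted ECs, Epcam differed by 0.16 ± 0.19 and Cdh1 by 0.12 ± 0.26, whereas Scgb2b27 differed by -0.70 ± 0.45, with a 95% interval of -1.67 to 0.26. Without implanted cGAMP 1, Epcam was higher by 0.44 ± 0.14 (limma adjusted p = 0.0276) and Cdh1 by 0.47 ± 0.22 (limma adjusted p = 0.118). Over the main fit and the alternatives named below, Epcam ranged from -0.288 to 0.442 and Cdh1 from -0.277 to 0.473. The sign of these differences therefore depended on the processing. The lowest limma adjusted p over the same settings was 0.0283 for Krt8, 0.0248 for Krt18 and 0.0167 for Car12, with none of these called. The intervals were wide for the rarer genes, and small changes of these could not have been detected.

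**Figure D3:**
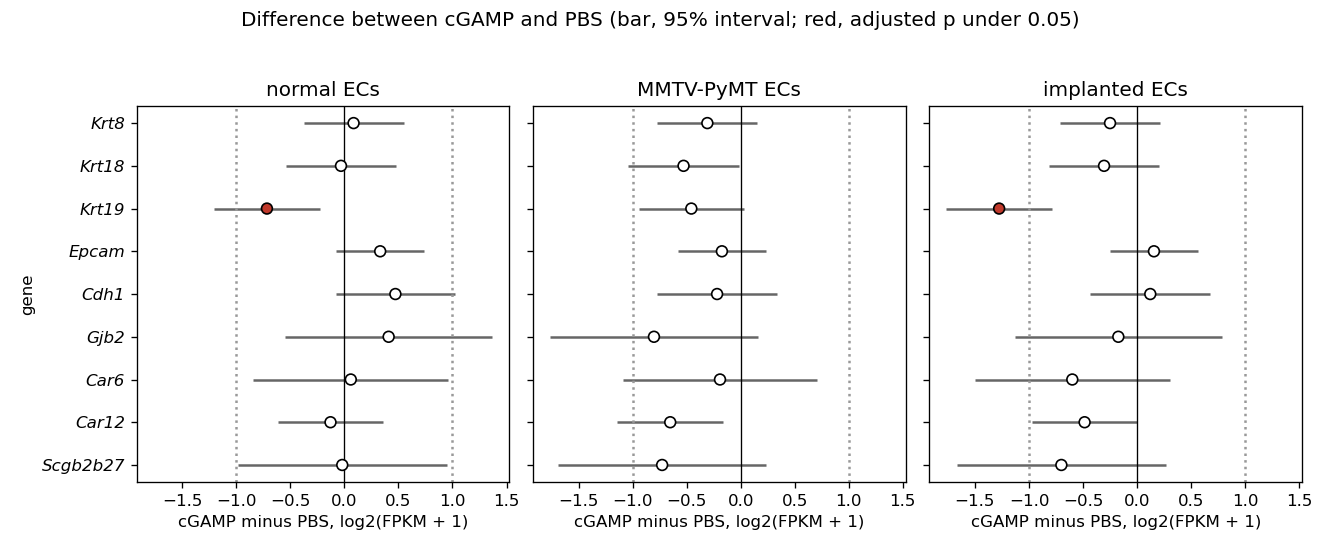
Difference between cGAMP and PBS in log2(FPKM + 1) for the 9 transcripts in each tissue, with 95% intervals from limma and filled red points where the adjusted p was under 0.05. Krt19 is red in normal (-0.72) and implanted (-1.28) ECs, and all 9 points lie left of 0 in MMTV-PyMT ECs.

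Differences of the cGAMP effect between tissues were called for 0 of the 9 genes in each of 3 comparisons, with 1.75%, 4.68% and 2.47% of all tested genes called for MMTV-PyMT minus normal, implanted minus normal and implanted minus MMTV-PyMT. At an unadjusted limma p under 0.05, 0, 0 and 1 of the 9 counted in these comparisons, Krt19 for implanted minus MMTV-PyMT, against 24.2%, 32.2% and 24.7% of all tested genes. Gjb2 had the most negative value for MMTV-PyMT minus normal, at -1.21 ± 0.64 (limma adjusted p = 0.262). That value rests partly on normal cGAMP 2, where Gjb2 was 5.38 times as high as in normal cGAMP 1 (2.98 FPKM), normal cGAMP 3 being at 3.71 FPKM, and it was -0.55 without that library.

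Epithelial transcripts varied together between replicates in the tumours and less evenly in normal ECs. Deviations of log2(FPKM + 1) from the group mean were correlated for the 36 pairs of genes over 18 libraries. Every pair was positive, with a median Pearson correlation of 0.709, from 0.246 (Krt19 with Gjb2) to 0.980 (Krt8 with Krt18). The median Spearman correlation was 0.676. The points share libraries and group means, so the pairs are not independent. Krt8 and Krt19 were at 0.945, and Car6 and Scgb2b27 at 0.873. The 3 pairs of keratins were the highest of the 36, with Krt18 and Krt19 at 0.929.

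The covariation was not equal across tissues. Over 6 libraries each, the median correlation was 0.905 in implanted ECs, where all 36 pairs were positive, and 0.715 in MMTV-PyMT ECs. In normal ECs it was 0.251 and 25 of the 36 pairs were positive. Car6, Car12 and Scgb2b27 had only 1 to 33 reads per library there. Every negative pair but Krt19 with Gjb2 (-0.450) included such a gene. Among the genes with more reads, Krt18 with Epcam was at 0.957 and Krt8 with Krt18 at 0.884, but Krt19 with Cdh1 was at 0.0731. The tissues were not tested against each other. Over the 18 libraries the median correlation fell to 0.578 without implanted cGAMP 1, and to 0.383 without the 2 libraries farthest out, implanted cGAMP 1 and implanted PBS 2. A large part of the covariation therefore rests on those 2 libraries, and 35 of 36 pairs stayed positive without them.

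Some libraries were low for nearly every gene. All 9 genes were at their lowest in implanted PBS 2, implanted cGAMP 1 and MMTV-PyMT cGAMP 2, each within its own group, and 8 of 9 were so in MMTV-PyMT PBS 1. In implanted PBS 1, 8 of 9 genes were at their highest. The share of all genes at their lowest or highest in these libraries was not computed, so nothing particular to the 9 is read from these counts. For Krt8, implanted cGAMP 1 was at 56.6 FPKM against 127 and 100.2 FPKM in the other 2 libraries. The spread between the highest and lowest library of that group was 2.24-fold for Krt8, 2.64-fold for Krt18, 1.88-fold for Epcam and 4.45-fold for Scgb2b27. In MMTV-PyMT ECs under PBS the keratins and adhesion genes were far more even, at 1.05-fold for Krt8 and 1.14-fold for Epcam, while Car6 and Scgb2b27 spanned 2.40-fold and 3.40-fold. Car6 and Scgb2b27, whose products are secreted, thus had the widest spread of the 9 in that group.

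**Figure D4:**
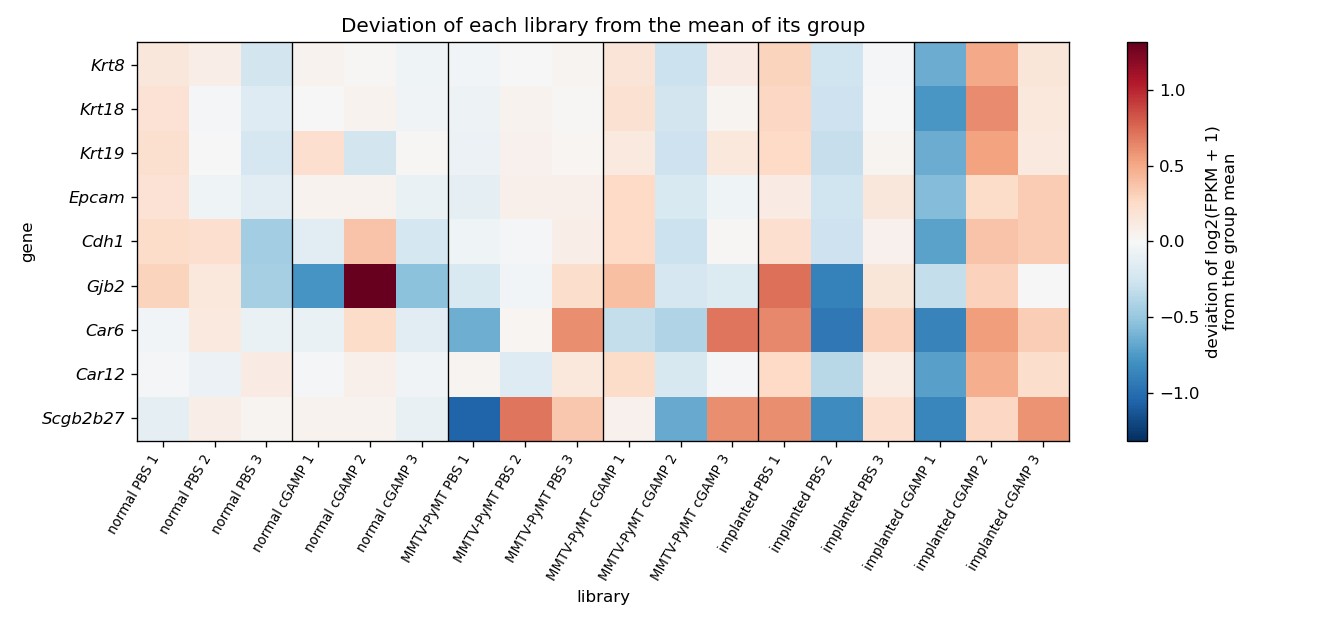
Deviation of log2(FPKM + 1) from the mean of its group for each of the 9 transcripts (rows) in each of the 18 libraries (columns), blue below and red above the mean. Columns of 1 colour are libraries in which the 9 genes moved together, as in implanted cGAMP 1 and implanted PBS 2, where all 9 were lowest.

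Endothelial and mural markers ran against the epithelial transcripts within groups. For each gene the deviations were correlated with the mean standardised deviation of the 9 over 18 libraries. The median was -0.833 for 8 endothelial markers, none of which was positive, and -0.553 for 5 mural markers. It was 0.812 for 48 further epithelial genes, of which 26 were above 0.8, and -0.0387 for the 13974 other tested genes, of which 311 were above 0.8. Milk genes (7 of 8 listed) had a median of 0.150, with 0 above 0.8. Basal or myoepithelial, leukocyte and fibroblast markers lay at 0.460, 0.315 and 0.161. The epithelial genes thus varied together and opposite to the endothelial markers over the 18 libraries. These list values were not recomputed without implanted cGAMP 1 or implanted PBS 2, the libraries farthest out. FPKM are shares of a library, so a gain of one set lowers the others, and the part of this in the negative values was not tested.

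The genes most alike to the 9 by this measure were Trpm6 (0.983), Hacd3 (0.970), Spint2 (0.964), Ltbp3 (0.956), Ildr1 (0.955) and Sox9 (0.949). Without the 2 libraries farthest out, these values were 0.931, 0.974, 0.919, 0.892, 0.872 and 0.856. Their group means differed in tissue order. Trpm6, a magnesium channel, was at 1.06, 1.01 and 1.10 FPKM in normal, MMTV-PyMT and implanted ECs under PBS and at 3.65 FPKM in implanted ECs under cGAMP. Hacd3 was at 27.1, 29.0 and 20.3 FPKM under PBS. Spint2, a serine protease inhibitor of epithelia, was at 25.3, 67.4 and 40.1 FPKM, the order seen for Epcam and Cdh1.

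Further epithelial genes were examined as a list of 48, all of which were listed and tested. Under PBS, 28 of them were higher and 3 lower in MMTV-PyMT than in normal ECs, against 6.24% and 7.67% of all tested genes. In implanted ECs, 14 were higher and 8 lower than in normal ECs, against 5.74% and 5.71%. Against MMTV-PyMT ECs, 1 was higher and 11 lower in implanted ECs, with 4.28% and 3.05% of all genes called. The list was chosen with earlier results of these data known and is not independent of them.

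The genes that rose in MMTV-PyMT ECs came from several of the groups. Of 12 genes for tight junctions and desmosomes, 9 rose, among them Cldn3, which encodes a claudin, from 36.9 ± 6.90 to 173 ± 14.0 FPKM (2.21 ± 0.28 in log2(FPKM + 1), limma adjusted p = 7.09e-06). All 4 membrane proteases and inhibitors, 9 of 12 transcription and splicing factors and both sorting genes rose too. None of the other 6 keratins rose, and 1 fell. In implanted ECs 4 of those 6 keratins were lower than in normal ECs. Krt5, a keratin of basal cells, had a mean of 9.04 FPKM in implanted against 37.2 FPKM in MMTV-PyMT ECs (-1.95, limma adjusted p = 0.00034). Krt23 (-1.65) and the desmosomal cadherin gene Dsc2 (-1.63) were also lower in implanted than in MMTV-PyMT ECs. The 8 basal or myoepithelial markers summed to 455 to 482 FPKM in normal ECs under PBS and to 80.5 to 125 FPKM in the tumours. Their highest gene, Acta2, is also a gene of mural cells, and mural markers were lower too, with 5 of 5 called lower in MMTV-PyMT and 4 of 5 in implanted ECs against normal. The part of mural cells in the lower basal sum was not tested.

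Secreted products included the largest increases over normal ECs in both tumours. Lcn2, the iron-binding lipocalin, had means of 524 ± 75.1 FPKM in MMTV-PyMT, 544 ± 107 FPKM in implanted and 42.6 ± 2.51 FPKM in normal ECs. It rose by 3.58 ± 0.20 and 3.62 ± 0.20 in log2(FPKM + 1) (limma adjusted p = 2.42e-09 and 1.47e-09). Ltf, which encodes lactoferrin, was higher in implanted ECs than in either other tissue, by 3.78 ± 0.42 against normal and by 2.20 ± 0.42 against MMTV-PyMT ECs (limma adjusted p = 2.08e-06 and 0.000566). Foxa1, a transcription factor of hormone-responsive luminal cells, went the other way and had the most negative difference of the 48 in both. It was at 13.0 ± 2.24 FPKM in normal ECs and at 1.03 ± 0.50 and 0.297 ± 0.31 FPKM in MMTV-PyMT and implanted ECs (-2.80 ± 0.22 and -3.45 ± 0.22, limma adjusted p = 5.50e-08 and 5.07e-09). Wfdc2, a secreted relative of whey acidic protein, differed by -2.31 ± 0.35 in both. Krt19, Foxa1 and Wfdc2 were thus epithelial transcripts with more FPKM in the fat pad than in the tumours.

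**Figure D5:**
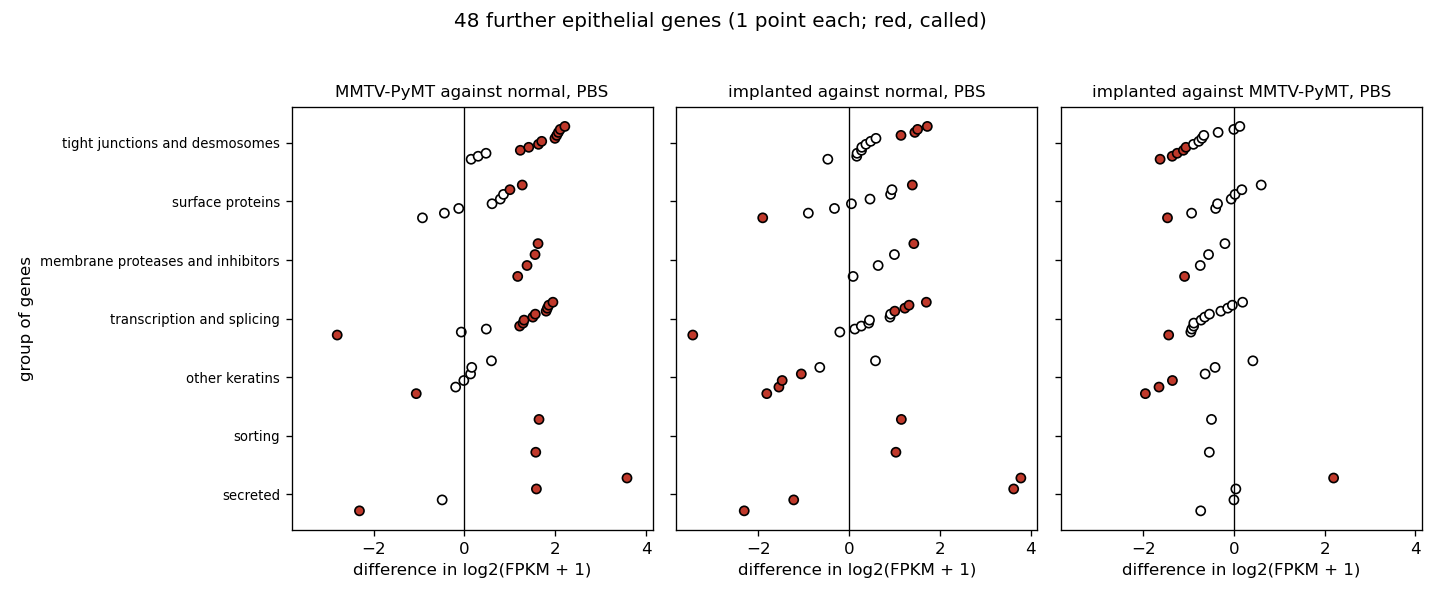
Differences in log2(FPKM + 1) between tissues under PBS for 48 further epithelial genes in 7 groups, 1 point per gene, red where called. In MMTV-PyMT against normal ECs 28 red points lie right of 0 and 3 left, whereas in implanted against MMTV-PyMT ECs 1 lies right and 11 left.

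cGAMP changed a few of these genes. Ocln, which encodes occludin, rose in normal (1.16 ± 0.20) and implanted ECs (1.24 ± 0.20), as differences in log2(FPKM + 1) ± SE (limma adjusted p = 0.000377 and 0.000109). Krt17, an inducible keratin, rose in MMTV-PyMT (1.14 ± 0.31) and implanted ECs (1.80 ± 0.31), and Ovol1 rose in MMTV-PyMT ECs (1.10 ± 0.23). In all, 2 of the 48 rose in normal and 3 in MMTV-PyMT ECs with 0 called lower, against 3.02% and 2.49% of all genes called higher.

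In implanted ECs, 3 of the 48 rose and 4 fell, with 6.13% and 1.09% of all genes called. Those that fell were Cldn3 and the transcription factor genes Tfap2c (-1.48 ± 0.28, limma adjusted p = 0.000562), Elf5 (-1.29 ± 0.26, limma adjusted p = 0.0009) and Grhl1 (-1.09 ± 0.25, limma adjusted p = 0.00257). Cldn3 was 1.03 lower in log2(FPKM + 1) and is named outside the rule for named genes, after its value was seen. Without implanted cGAMP 1 the 7 calls became 6 higher and 1 lower. Only 4 genes were called in both, and of the 4 that fell only Tfap2c remained, at -1.08. Marveld2 (1.04), Ovol1 (1.13) and Slpi (1.04) were called higher instead. The balance of higher and lower calls under cGAMP in implanted ECs thus depended on that library, while Elf5 (-0.88), Grhl1 (-0.83) and Cldn3 (-0.61) stayed negative without it.

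Other lists were examined beside the 9. Casein and other milk genes are products of secretory epithelium. Under cGAMP in normal ECs 4 of the 7 tested fell, Csn1s1, Csn1s2a, Csn2 and Lalba, with differences of -1.39 (Lalba) to -4.36 (Csn1s2a), and their list summed to 188 to 353 FPKM under PBS and 96.4 to 101 FPKM under cGAMP. Csn1s1 and Csn2 varied widely in treated normal ECs, at 12.5 ± 18.1 and 3.85 ± 6.23 FPKM (SD). In implanted ECs 1 fell, Wap, and in MMTV-PyMT ECs 0 were called. Of all tested genes, 0.687%, 0.0715% and 1.09% were called lower in normal, MMTV-PyMT and implanted ECs. Of 26 relatives of the 9 in the carbonic anhydrase, connexin and cadherin families, 15 were tested. With cGAMP, 2 rose and 1 fell in normal, 1 rose and 0 fell in MMTV-PyMT, and 2 rose and 0 fell in implanted ECs. The shares of all tested genes called higher in these tissues were 3.02%, 2.49% and 6.13%. Car13, a cytosolic carbonic anhydrase, rose in all 3 tissues, by 2.03 ± 0.16, 1.77 ± 0.16 and 2.35 ± 0.16, while Car6 and Car12 were not called in any. Leukocyte markers (6 of 7 listed, Lyz2 the highest) summed to between 14.8 and 77.4 FPKM in 17 libraries and to 207 FPKM in implanted cGAMP 2. Fibroblast markers summed to 47.3 to 602 FPKM, with Col1a1 the highest, mural markers to 134 to 737 FPKM, with Rgs5 the highest, and 0 of 5 adipocyte markers were listed. The part of these other cells in the levels above was not tested.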

How the data were processed

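Bulk RNA was sequenced from sorted ECs in 18 libraries, 3 in each of 6 groups. Per the labels, libraries were made with a directional kit, and FastQC, STAR 2.7, HTSeq and mm10 are named. The values the authors deposited are FPKM, read counts scaled for gene length and library depth, in 1 table. Their step from counts to FPKM is not given in the sources used here. The table lists no gene at 0 in any library. Of the columns, 12 name tumour and treatment. The other 6 name only the treatment and were taken as normal ECs by elimination. Labels give samples of a group as separate samples, and a legend of the study gives separate mice from 3 independent experiments. The labels do not say which libraries shared an experiment. P-values measure the spread between these libraries.

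From the deposited FPKM, whole reads were recovered with GENCODE M21 exon lengths for 15783 of 16248 genes (97.1%, tolerance 0.02 reads), and 1 read on 1 kb was worth 0.0753 to 0.1196 FPKM. The deposited scale differed from one by total reads by a factor of 0.749 to 1.18. Without molecular identifiers, read counts cover counting error only. All 18 pairs of replicates differed by more than sampling noise (chi-square per gene 4.12 to 31.9).

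Genes with FPKM of at least 1 in at least 3 libraries were tested (13983, with 2265 below). Group means were modelled on log2(FPKM + 1), which understates changes of low genes, with limma 3.58.1 in R 4.3.3 (eBayes with trend, 2-sided, Benjamini-Hochberg over all tested genes, 12 comparisons). A gene was called at an adjusted p under 0.05 and a log2 difference of at least 1, and passed at the adjusted p alone. The fit was tested on simulated data. Named beside the 9 genes were the 4 called epithelial genes with the largest difference per tissue comparison, up to 6 called per cGAMP comparison, and the 6 genes most alike. The 9 genes and all lists were chosen with earlier results of these data known. Alternatives covered the pseudocount, filter, scaling, voom, a replicate block, the fold limit and each library left out. One gene named by this rule is not reported here, though the counts include it.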

Additional observations from a re-analysis of the deposited data

Results flagged for a closer look

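The effect of cGAMP on Tfap2c, a transcription factor gene of luminal and trophoblast epithelium, differed between tissues by the test of the difference itself. Implanted minus normal was -1.21 on the log2(FPKM + 1) scale (SE 0.40, limma adjusted p = 0.0441). Tfap2c went from 16.1 ± 2.71 to 5.52 ± 2.67 FPKM in implanted ECs and from 6.26 ± 0.60 to 5.30 ± 2.53 FPKM in normal ECs. Without implanted cGAMP 1 the difference was -0.81 (limma adjusted p = 0.0786), and without normal cGAMP 2 it was -0.90 (limma adjusted p = 0.108). It was called in 12 of 26 alternatives and in 6 of the 18 that left out a library, with limma adjusted p from 0.0161 to 0.108.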

How the results depend on the processing

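Results were recomputed under 26 alternatives. None turned a direction that had been called. With no fold limit, 1 of the 9 genes (Krt19) counted for cGAMP in normal ECs, and of the 48 further epithelial genes 5 were lower in MMTV-PyMT than in normal ECs, 24 were higher in implanted than in normal ECs, 22 were lower in implanted than in MMTV-PyMT ECs, and 10 and 21 changed with cGAMP in normal and implanted ECs. With a mean FPKM of at least 5, 5 were lower in implanted than in normal ECs. Under scaling by total reads, 17 were lower in implanted than in MMTV-PyMT ECs and 12 changed with cGAMP in implanted ECs. With a pseudocount of 0.1, cGAMP changed 5 in normal and 12 in implanted ECs, and with voom 5 and 11. Fewer genes are tested with the stricter filter, and otherwise the cause was not tested.

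With each library left out in turn, the number of the 9 genes called ranged from 0 to 1 for cGAMP in implanted ECs and for implanted minus MMTV-PyMT. Median tissue differences of the 9 ranged from 1.78 to 2.13, from 0.827 to 1.19 and from -1.25 to -0.973. Further epithelial genes ranged from 27 to 28 higher and 2 to 4 lower (MMTV-PyMT against normal), 12 to 19 and 7 to 8 (implanted against normal), and 1 higher and 8 to 13 lower (implanted against MMTV-PyMT). With cGAMP, 2 to 4, 1 to 4 and 5 to 10 changed in normal, MMTV-PyMT and implanted ECs (4 without normal PBS 3, 1 without MMTV-PyMT cGAMP 1), and the median covariation was 0.578 to 0.755. For Krt19 under cGAMP in implanted ECs, limma adjusted p ranged from 4.86e-05 to 0.00298, with the call lost only without implanted cGAMP 1. Of the values for single genes, 1984 kept their side of the threshold, 11 lost it and 2 gained it.

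Replicate numbers gave no sign of pairing, since deviations of same-numbered libraries correlated at -0.291 to 0.263, with 1 of 9 pairs above 0.1. So few libraries per group cannot exclude that some shared an experiment. A replicate block left the number of called genes among the 9 at 0, 0 and 1 for cGAMP in normal, MMTV-PyMT and implanted ECs, and gave the Tfap2c difference between implanted and normal ECs a limma adjusted p of 0.0582. Depth limits Car6, Car12 and Scgb2b27 in normal ECs, at 1 to 33 reads per library.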
